A study of Mus musculus with 2 samples.

Results

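MiR-21 is a microRNA that is abundant in many growing and mesenchymal cells and its processing from the primary transcript is known to be helped by SMAD proteins. It was read here by 1 of the 377 probes other than controls on a microRNA array, the probe hsa_miR_21 with its human prefix, printed as 4 spots. The probe was found by its name, and 0 probes with a mouse or rat prefix carry the name miR-21. Mature miR-21 is the same in human and mouse, so the human-prefixed probe was taken as the mouse miRNA, 1 of 256 mouse miRNAs with 1 probe each. The study asked which microRNAs BMP7, a bone morphogenetic protein, regulates in C3H10T1/2 cells, a mouse mesenchymal line that can turn into fat, bone or cartilage cells. Total RNA from cells kept for 3 days with 3.3 nM BMP7 was compared with total RNA from cells kept for 3 days with vehicle. The RNA was given a poly(A) tail and labelled with Cy3, and each group had 1 array. Each array thus stands for 1 sample. With so few arrays the precision is limited and no p-value can be had.

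BMP7 binds receptors at the cell surface that phosphorylate SMAD proteins. In human vascular smooth muscle cells these SMAD proteins are known to join the nuclear enzyme complex that cuts the primary transcript of miR-21 into its hairpin, and so to raise mature miR-21. They bind a short motif in the stem of such hairpins. A known target of miR-21 is PDCD4, which restrains translation, and in human adipose stromal cells miR-21 is known to favour fat cell formation.

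The sequences that a miR-21 probe could read are shown first, with the seed (bases 2 to 8, which pair with targets) in capitals. They are from RefSeq, build GRCm38.p6. Mir21a lies on the minus strand, with its 5p arm, miR-21 itself, at chr11:86584120-86584141 and its 3p arm at chr11:86584082-86584103. Mir21b is at chr3:29636768-29636790 on the plus strand and Mir21c at chr8:128278188-128278208 on the minus strand.
mmu-miR-21a-5p: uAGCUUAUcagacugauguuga
mmu-miR-21a-3p: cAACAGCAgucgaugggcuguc
mmu-miR-21b: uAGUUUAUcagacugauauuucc
mmu-miR-21c: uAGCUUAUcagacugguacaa
MiR-21c shares the seed of miR-21a-5p and miR-21b does not. Of 1738 mature mouse miRNAs in the table, 2 carry this seed. Counted from the 5′ end, miR-21b differs from miR-21a-5p at 4 of 22 positions (C4U, G18A, G21U and A22C), and miR-21c at 5 of 21 (A16G, G18A, U19C, U20A and G21A). The array has no probe named for miR-21b, miR-21c or the 3p arm, so its miR-21 value may hold signal of the copies as well.

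The hairpins of the SMAD-processed list are shown next, with the stem motif CAGAC and its reverse complement GUCUG in capitals. The list holds miR-21, miR-199a and its other strand, miR-215, miR-421 and miR-105; miR-199a comes from 2 genes, and the hairpin of Mir105, which holds neither motif, is not shown. The hairpin of Mir214 is added because it holds the motif and its miRNA was detected. Mir21a is at chr11:86584067-86584158 (minus), Mir199a-1 at chr9:21496495-21496564 (minus), Mir199a-2 at chr1:162217814-162217923 (plus), Mir214 at chr1:162223368-162223477 (plus), Mir215 at chr1:185313581-185313692 (plus) and Mir421 at chrX:103572921-103572996 (minus), all in GRCm38.p6.
Mir21a hairpin: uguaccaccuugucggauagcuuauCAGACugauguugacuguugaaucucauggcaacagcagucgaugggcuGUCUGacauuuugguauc
Mir199a-1 hairpin: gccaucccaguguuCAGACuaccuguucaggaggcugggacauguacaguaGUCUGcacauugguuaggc
Mir199a-2 hairpin: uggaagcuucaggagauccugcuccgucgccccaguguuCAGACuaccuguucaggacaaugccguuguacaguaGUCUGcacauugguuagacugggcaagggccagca
Mir214 hairpin: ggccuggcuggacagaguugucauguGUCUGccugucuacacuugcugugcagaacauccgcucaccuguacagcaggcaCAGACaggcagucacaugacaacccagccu
Mir215 hairpin: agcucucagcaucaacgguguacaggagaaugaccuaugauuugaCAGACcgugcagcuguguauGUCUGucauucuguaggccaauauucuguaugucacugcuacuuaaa
Mir421 hairpin: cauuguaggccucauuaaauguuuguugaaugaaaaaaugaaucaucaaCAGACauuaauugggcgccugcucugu
In the Mir21a hairpin of 92 bases CAGAC starts at base 26, which is base 9 to base 13 of mature miR-21, just after the seed. GUCUG starts at base 75, on the other arm, and the matches do not overlap. Of 1005 mouse hairpins in the table, 80 (7.96%) hold CAGAC, 143 (14.2%) hold GUCUG and 18 (1.79%) hold both, as Mir21a does. A match of 5 letters is a description of the sequence and not a binding site.

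Cy3 carried the labelled RNA, and brightness in its channel is given in the scanner's intensity units. The local background had a median of 4650 units with BMP7 and 3756 with vehicle. Of the spots other than controls, 63.9% with BMP7 and 44.5% with vehicle lay below their own background. A miRNA was called detected when at least 2 of its 4 spots exceeded their local background by 2 standard deviations of the backgrounds over the array. By this rule 41 of the 256 mouse miRNAs passed with BMP7 and 58 with vehicle, 65 of them on at least 1 array and 34 on both. At equal detector gain, the laser that excites Cy3 read a power of 3.17 when the BMP7 array was scanned and 2.45 when the vehicle array was. Of 4 miRNAs listed for mesenchymal cells (miR-199a, miR-214, miR-145 and miR-143) all 4 were detected, 3 of them on both arrays. MiR-143 was detected in 2 of 4 spots on the vehicle array alone. Of 16 probes for markers of muscle, blood, epithelium, neuron, liver and endothelium, only miR-141 was detected, in 2 of 4 spots on the vehicle array alone.

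MiR-21 was among the brighter miRNAs on both arrays. On the BMP7 array the 4 spots of hsa_miR_21 read 9228, 9324, 8183 and 8381 units in the Cy3 channel. On the vehicle array the spots at the same places read 7847, 8259, 9043 and 8859. The BMP7 spots were the brighter at places 1 and 2 and the dimmer at places 3 and 4, and the arrays overlapped. The means were 8779 ± 581 on BMP7 and 8502 ± 550 on vehicle (SD over spots, n = 4), a ratio of 1.03 before any correction. These spreads are between spots of 1 array and say nothing of the spread between cultures.

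The local background around these spots was 4121, 4270, 4272 and 4330 units with BMP7 and 4170, 4142, 4632 and 4472.5 with vehicle. Less the background, miR-21 was at 5107, 5054, 3911 and 4051 units with BMP7 and at 3677, 4117, 4411 and 4386.5 with vehicle. Every spot was well above its surroundings, by 4.13 to 5.39 times the detection limit with BMP7 and by 3.19 to 3.83 times with vehicle. At places 1 and 2 the BMP7 spots were at 139% and 123% of the vehicle spots, and at places 3 and 4 at 88.7% and 92.4%. The mean was 4531 ± 638 with BMP7 and 4148 ± 341 with vehicle (SD, n = 4 spots), a ratio of 1.09 that is within the spread of the spots.

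**Figure D1:**
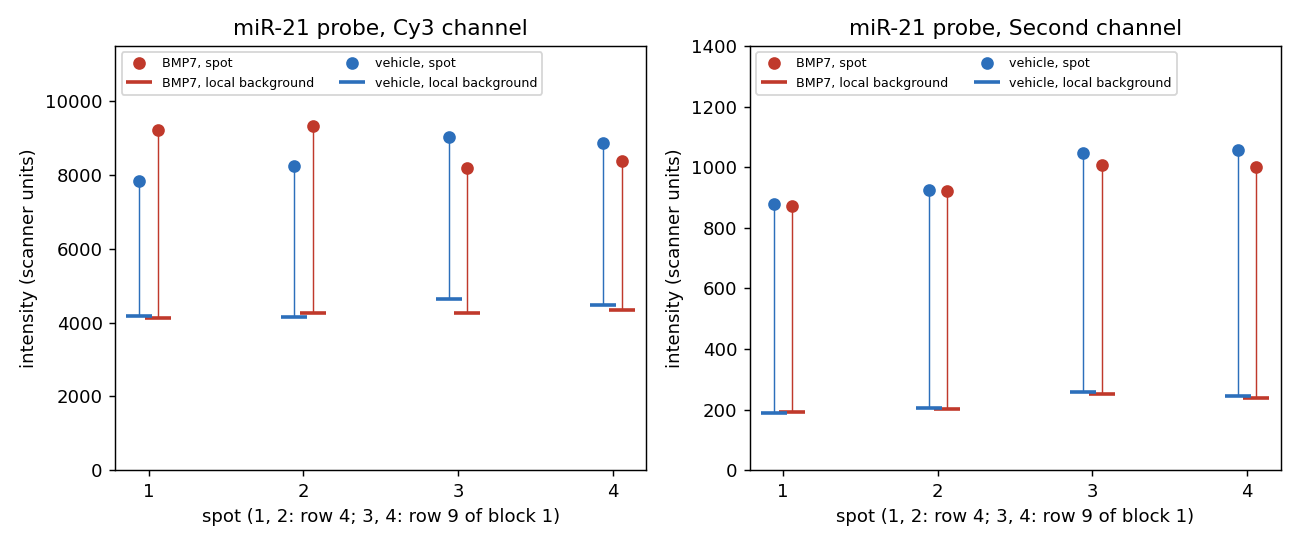
Brightness of the 4 miR-21 spots (points) and of their local background (bars) in the Cy3 channel, left, and in the second channel, right, in scanner units by place on the BMP7 and vehicle arrays. In the Cy3 channel the BMP7 spots are above the vehicle spots at places 1 and 2 (9228 and 9324 against 7847 and 8259) and below them at places 3 and 4, while in the second channel each BMP7 spot lies at or just under the vehicle spot of the same place.

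By level, miR-21 was 9th of 256 mouse miRNAs with BMP7 and 12th with vehicle, after a background correction that models noise and signal together (normexp) and before any scaling between arrays. A rank of brightness is not a rank of amount, because probes differ in how well they bind and label. It stood at 23.8% of the brightest miRNA on the BMP7 array, miR-140_AS of cartilage, and at 26.9% of the brightest on the vehicle array, let-7c, one of a family that accumulates as cells differentiate. The median miRNA was at or near background, at -260 units on BMP7 and 178 on vehicle.

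The nearest miRNAs in this order were set against the spread of their spots. On the BMP7 array the log2 level of miR-21 was 12.57 ± 0.15 (SD, n = 4 spots). Just above it were miR-199a, known from mesenchymal cells, at 12.64 ± 0.18, let-7b at 12.71 ± 0.09 and miR-138, known to restrain bone and fat cell formation, at 12.76 ± 0.16. Just below were miR-199a_AS at 12.47 ± 0.20, miR-24 at 12.45 ± 0.19 and miR-16, which restrains the cell cycle, at 12.43 ± 0.36. Each of these 6 lay within the sum of its SD and that of miR-21, so their order on this array is not settled. On the vehicle array miR-21 was at 12.40 ± 0.09. MiR-125b at 12.38 ± 0.12, miR-503 at 12.37 ± 0.20 and miR-99a at 12.30 ± 0.11 followed within that spread. Above it miR-24 at 12.61 ± 0.08, the smooth muscle miRNA miR-145 at 12.77 ± 0.09 and miR-214 at 13.08 ± 0.12 stood further off than the SDs summed.

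**Figure D2:**
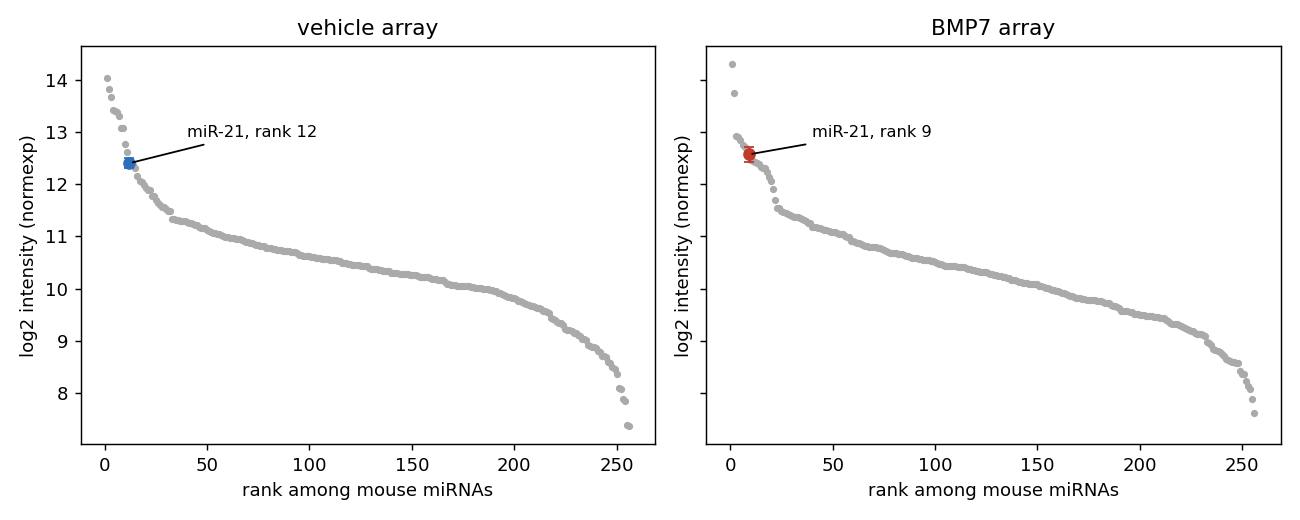
Log2 intensity after normexp background correction of the 256 mouse miRNAs, in order of level, on the vehicle array (left) and the BMP7 array (right), with miR-21 in colour and its SD over 4 spots as the bar. MiR-21 sits on the steep part of both curves, at rank 12 with vehicle and rank 9 with BMP7.

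After quantile normalization, which gives both arrays the same distribution, miR-21 was higher with BMP7 by 0.31 ± 0.12 on the log2 scale (SE over the 4 spots of each array), or 1.24-fold. The processed spots were at 12.91, 12.88, 12.45 and 12.54 with BMP7 and at 12.29, 12.37, 12.44 and 12.43 with vehicle. The lowest BMP7 spot, at place 3, exceeded the highest vehicle spot, at the same place, by 0.012. All BMP7 spots lay above all vehicle spots by that margin, as they did for 12 of the 65 detected miRNAs (18.5%). Before this step the processed spots overlapped, and the difference was 0.17.

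The difference was not even over the probe. At places 1 and 2, side by side in row 4 of the print block, it was 0.62 and 0.51. At places 3 and 4, in row 9 of the same block, it was 0.012 and 0.11. With normexp and no scaling between arrays the 4 differences were 0.43, 0.30, -0.051 and -0.0081. The mean over the first pair of places was 0.57 and that over the second pair 0.063, a gap of 0.50. Among the 65 detected miRNAs 25, miR-21 included, had a gap of at least this size in either direction, so such a gap between pairs of spots was common among the 65. Of these, 34 were detected on both arrays, and the gap was not examined apart for probes as bright as miR-21. Only 1 other detected miRNA, miR-23b (named after its values were seen), lies in the same block, and there too the first pair gave more, 2.18 against 0.72. Its spots varied widely and overlapped between the arrays, at 1.45 ± 1.02 (SE). Over the 24 probes of the block the pairs were alike. Their median difference less background was -65.0 units in the first pair and -58.9 in the second.

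**Figure D3:**
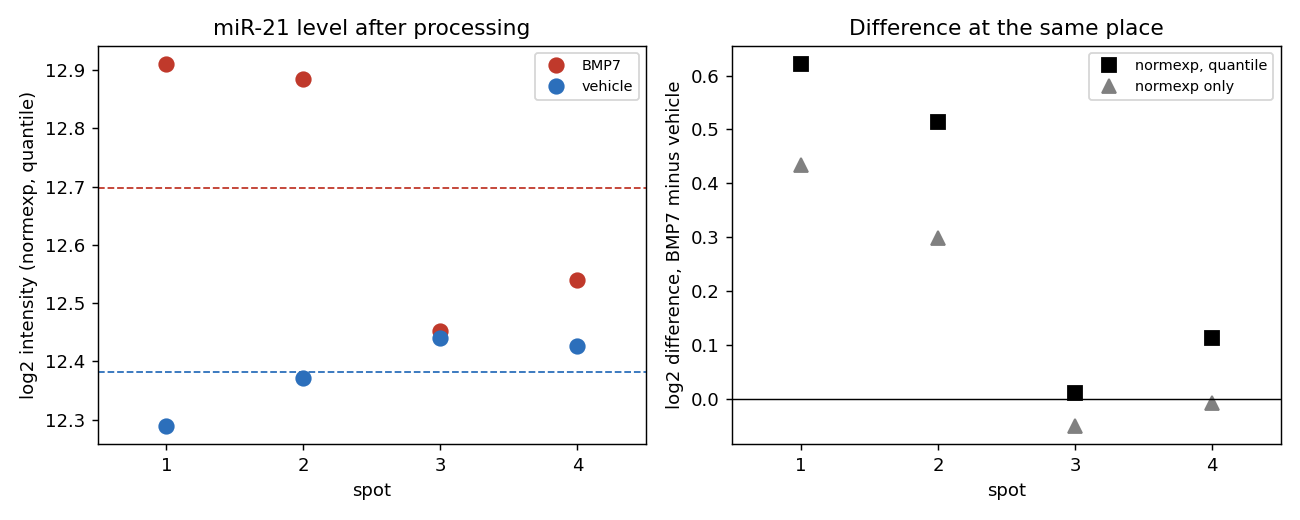
Left, log2 intensity of the 4 miR-21 spots after normexp and quantile normalization on each array, with array means as dashed lines (12.70 with BMP7 and 12.38 with vehicle); right, the difference BMP7 minus vehicle at each place, with quantile normalization (squares) and without scaling between arrays (triangles). The difference is 0.62 and 0.51 at places 1 and 2 and 0.012 and 0.11 at places 3 and 4.

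The print block that holds miR-21 differed from the others in both its dim probes and its control spots. The difference of its local background, BMP7 minus vehicle, had a median of -56.4 units, the lowest of 16 blocks, beside 846 units for the median block. Its 24 probes, of which 2 gave detected mouse miRNAs, had a median difference of 0.40 with normexp and no scaling between arrays, against -0.27 for the median block. In scanner units the same probes were dimmer with BMP7, by a median of -117 uncorrected and -59.5 less background. The median block was at 298 and -568. The sign of 0.40 thus depended on normexp, applied to probes mostly not detected. Against that 0.40, the 12 Cy3 control spots of the miR-21 block went the other way. Their log2 ratio of BMP7 to vehicle was -0.47, the lowest of the 16 blocks, whose median was -0.22. Taken, with normexp, against the probes of its own block, miR-21 was at -0.23. Taken, after plain background subtraction, against the Cy3 control spots of its own block it was at 0.60. These 2 values differ in the background correction as well as in the reference, so their difference in sign cannot be put to either alone. The part of place in the result was not tested further.

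Read against all detected miRNAs, miR-21 was 19th of 65 by its difference, where the median was -0.030 and the quartiles were -0.49 and 0.41. Of the 65, 41 were detected with BMP7 and 58 with vehicle, and 34 on both arrays. Among these 34, the set to which miR-21 belongs, it was 10th and the median was 0.055. At 2-fold or more, 3 of the 65 (4.62%) were higher and 5 (7.69%) lower with BMP7, and miR-21 was in neither group. Over 8 other choices of background correction and scaling, its difference ran from 0.086 to 0.48, its rank from 17th to 21st, and its distance from the median of the 65 from 0.14 to 0.78. Other scalings of the arrays put that median between -0.18, with none, and 0.13, with control spots. Other background corrections put it between -0.37, with plain subtraction, and -0.031.

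**Figure D4:**
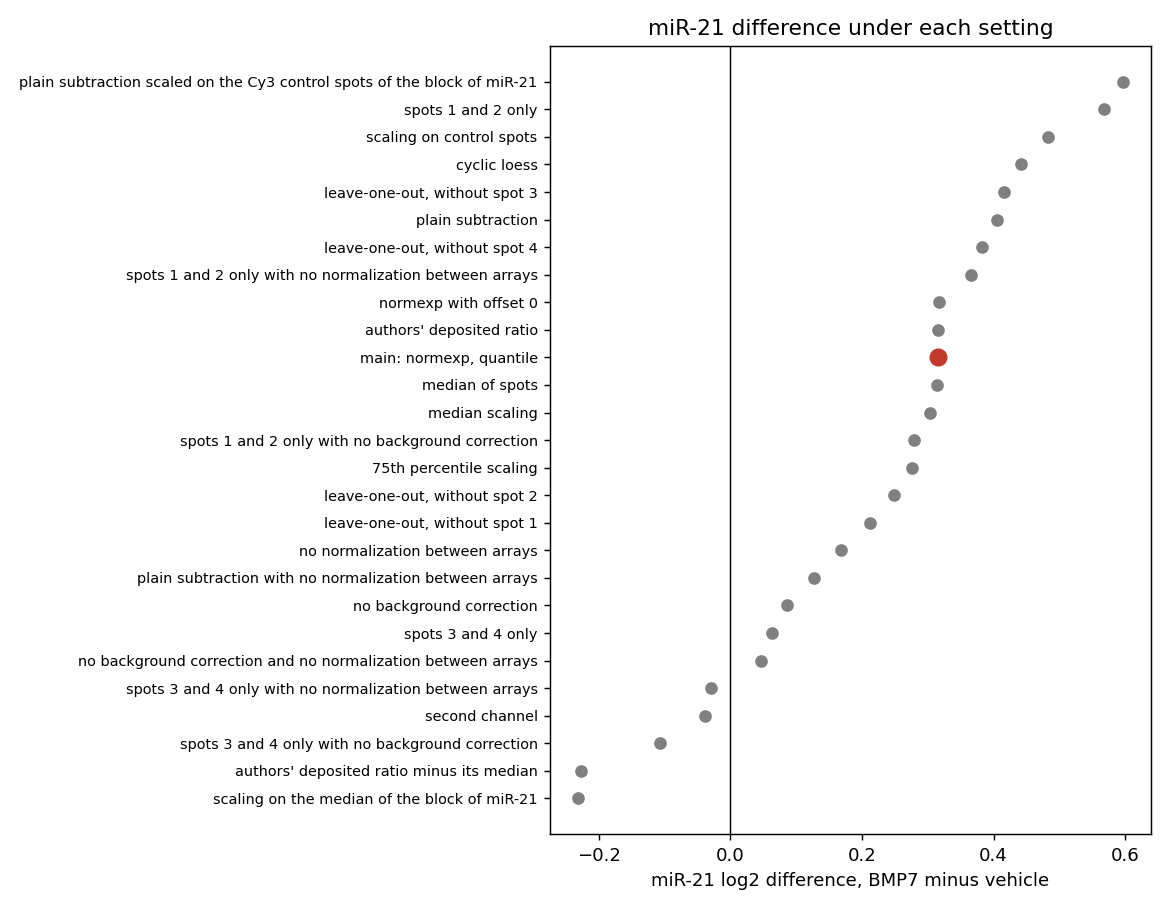
Log2 difference of miR-21, BMP7 minus vehicle, under each way of processing the Cy3 channel, in the second channel and in the authors' deposited table; the red point is the value with normexp and quantile normalization (0.31). Values run from -0.23, against its own block, to 0.60, against the Cy3 control spots of that block, and 5 of 26 alternatives lie below 0.

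In the second channel, whose content the sources used here do not give, miR-21 was dim. Its spots read 873, 921, 1008 and 1001 units with BMP7 and 877, 926, 1048 and 1055 with vehicle. Each BMP7 spot was at 94.9% to 99.5% of the vehicle spot at the same place. Here miR-21 ranked 217th with BMP7 and 216th with vehicle among the 256 mouse miRNAs by uncorrected brightness, far from its place by Cy3, and the second channel showed a log2 difference of -0.038 after the same processing.

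The authors' deposited table gives miR-21 as 0.530 with BMP7 and 0.426 with vehicle, a fold of 1.24. The authors' deposited table was rebuilt for this probe as the mean ratio of Cy3 to second channel over its 4 spots divided by that of the spots named Control_1, within 0.0321% with BMP7 and 0.0281% with vehicle. Per spot, the ratio of Cy3 to second channel was 10.6, 10.1, 8.12 and 8.37 with BMP7 and 8.95, 8.92, 8.63 and 8.40 with vehicle, and these overlapped. Their means of 9.30 ± 1.23 and 8.72 ± 0.26 (SD, n = 4 spots) gave a fold of 1.07. The Control_1 spots had a mean ratio of 17.5 with BMP7 and 20.5 with vehicle (n = 16 spots each), a fold of 1.17 in the divisor, vehicle over BMP7. This ratio used no background subtraction. In Cy3 these spots averaged 4112 units with BMP7 and 3915 with vehicle, beside median array backgrounds of 4650 and 3756. In the second channel they averaged 248 and 196, beside 342 and 293, so the divisor was read near or below background. Division by Control_1 took the fold from 1.07 to 1.24, and after it the 4 BMP7 spots all exceeded the 4 vehicle spots. Of 339 array probes in the authors' deposited table, 314 (92.6%) are higher with BMP7 and the median fold is 1.46, so that miR-21 is 257th of 339 by fold and 0.23 below the median on the log2 scale (-0.23). By level it is 21st of 339 with BMP7 and 19th with vehicle in the authors' deposited table. None of the 16 rows of the table's separate panel is named for miR-21 (0 of 16).

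In the SMAD-processed list 3 of the 6 probes were detected, miR-21 and the 2 strands of miR-199a, each in all 4 spots of both arrays. MiR-199a was at 12.82 ± 0.28 with BMP7 and 11.88 ± 0.24 with vehicle (log2, SD, n = 4 spots), a difference of 0.94 ± 0.18 (SE). Its other strand, miR-199a_AS, was at 12.55 ± 0.31 and 11.70 ± 0.26, a difference of 0.85 ± 0.20. Both were thus further apart between the arrays than miR-21, though they were dimmer than miR-21 with vehicle. In each of the 3 the lowest BMP7 spot exceeded the highest vehicle spot. It was so in 18.5% of the 65 and 9 of the 34 detected on both arrays (26.5%), where the 3 belong. With no scaling between arrays this held for the strands of miR-199a and not for miR-21. The list's median was 0.85, beside -0.030 over all 65 and 0.055 over the 34. MiR-105, miR-215 and miR-421 had 0 spots past the limit with BMP7 or with vehicle, so they have no fold. The members share a list that was drawn up with earlier results of these data known, and the strands of miR-199a come from the same hairpins.

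The hairpin motif gave a similar group. Of 8 mouse miRNAs on the array with CAGAC in a hairpin, 4 were detected: miR-21, miR-199a with its other strand, and miR-214, which lies close to Mir199a-2 on the same strand and is known from mesenchymal cells. MiR-214 was at 13.79 ± 0.08 with BMP7 and 12.88 ± 0.10 with vehicle, a difference of 0.91 ± 0.06. In these 4 the spots of the 2 arrays did not overlap and BMP7 was the higher. It was so in 18.5% of the 65 and 26.5% of the 34 detected on both arrays, where all 4 belong. With no scaling between arrays the spots of miR-21 overlapped, and those of miR-199a, miR-199a_AS and miR-214 did not. The median difference of the 4 was 0.88. Detected miRNAs with GUCUG alone numbered 6 of 32, with a median of 0.38. In 1 of these 6, miR-221, all BMP7 spots exceeded all vehicle spots, and it was detected with BMP7 alone. MiR-141, at 0.67 ± 1.15, was detected with vehicle alone. Detected miRNAs with neither motif numbered 45 of 191, with a median of -0.15, and 18 of these 45 were above 0. For 10 detected miRNAs the table held no hairpin. Beside Mir21a, the group rests on Mir199a-1 and on Mir199a-2 with its neighbour Mir214, and the motif group was formed with the values known, so the medians describe these arrays only. Against the median of its own print block miR-199a was at 0.60, miR-199a_AS at 1.02 and miR-214 at 0.052, beside -0.23 for miR-21. These block medians were taken with normexp, mostly over probes not detected, and the sign of that of the miR-21 block depended on normexp.

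**Figure D5:**
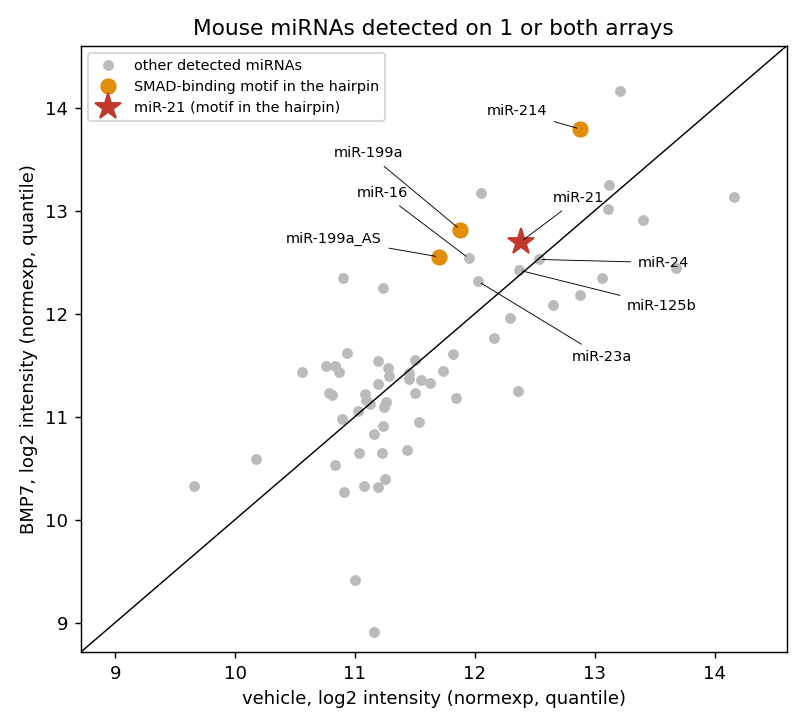
Log2 intensity after normexp and quantile normalization of the 65 mouse miRNAs detected on 1 or both arrays, vehicle on the horizontal and BMP7 on the vertical axis, with the line of equality. MiR-21 (star) lies 0.31 above the line, and the other detected miRNAs with the stem motif in their hairpin (orange), miR-199a, miR-199a_AS and miR-214, lie 0.94, 0.85 and 0.91 above it.

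The miRNAs whose pair of levels was most like that of miR-21, by Euclidean distance over the 2 arrays, were miR-24 (0.23), miR-125b (0.27), miR-16 (0.46), miR-199a (0.52) and miR-23a (0.52). MiR-24 differed between the arrays by -0.0073 ± 0.16 and miR-125b by 0.056 ± 0.13, with overlapping spots. MiR-16 was at 0.59 ± 0.27 with overlapping spots, and miR-23a at 0.29 ± 0.08 with the BMP7 spots all above those of vehicle. Such a separation was seen in 18.5% of the 65 and 26.5% of the 34 detected on both arrays. With 2 points per miRNA, likeness here means a like level more than a like response.

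MiR-21 also belongs to lists of miRNAs that favour fat cell formation and that go with growth and tumours. In the fat cell list 6 of 10 were detected, 2 on both arrays, with a median of 0.16, and without miR-21 it was 0.0015. MiR-103 was at -0.080 ± 0.52. MiR-107, detected with vehicle alone, differed by -0.15 ± 0.29 with overlapping spots, so that its direction is not settled. MiR-92 was 1.58-fold (0.66 ± 0.22) and miR-30a-5p 1.66-fold (0.73 ± 0.15) higher with BMP7, with no overlap of spots, as for 18.5% of the 65 detected miRNAs. Both were detected with BMP7 alone, so they entered the set through the array on which they were the brighter. Their vehicle level, not past detection, was taken at its own value, so these folds are estimates and not lower bounds. MiR-143, detected with vehicle alone as miR-107 was, had overlapping spots and a processed difference of 0.0015 ± 0.18. That value is itself the list's median without miR-21, and rests on a probe not well above background with BMP7. In the growth list 4 of 10 were detected, with a median of 0.49. The median was 0.18 for members detected on both arrays and -0.049 with no filter on detection. Of the 4 detected, miR-92 and miR-221 passed with BMP7 alone, where they were the brighter. The 4 were miR-21, miR-92, miR-221 at 0.87 ± 0.25 (1.83-fold), and miR-222 at 0.054 ± 0.27. None of these was past 2-fold. Among miRNAs known to respond to BMP or TGF-beta, 5 of 16 were detected, with a median of 0.0015, which is again the value of miR-143: miR-140 at 0.69 ± 0.21, miR-140_AS at 0.95 ± 0.21, miR-24 and miR-143 as above, and miR-145 at -0.57 ± 0.05 with the BMP7 spots all below those of vehicle, as for 23.1% of the detected miRNAs.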

How the data were processed

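A pair of miRNA arrays, 1 for BMP7 and 1 for vehicle, were compared; the miRNA, lists and tests were chosen with earlier results of these data known. Per the file headers, spot means in the Cy3 and second channels are intensity values from GenePix with no normalization and no background subtraction. Per the file headers, the sum and ratio of background-subtracted means can be negative and were used as a score, from which the local background was solved for 1727 of 1728 spots per array; the remaining spot took its block's median. The authors' deposited table and value matrix hold a ratio per probe with unstated scale and centring, and array column medians of 0.0813 (BMP7) and 0.0539 (vehicle).

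With limma 3.58.1 (R 4.3.3), Cy3 intensity was background corrected by normexp at an offset of 50. Controls were then removed, quantile normalization was applied, and each probe's 4 spots were averaged as log2. Tables used Python 3.11.15, numpy 2.4.6 and pandas 2.3.3. Steps were tested on simulated arrays, both drawn from the vehicle scan and its local background. That test did not cover background differences between the arrays. Probe names were matched to mouse miRNA genes of RefSeq (GRCm38.p6), 279 of 377 in all, 23 of them second probes; 25 of the 256 kept had no hairpin in the sequence table. The sources used here do not give a build for the array. Named miRNAs were miR-21, the SMAD-processed list, detected members of the other lists, the 3 neighbours in level on each side and the 5 most alike. Alternatives changed background, scaling, spots, channel and filter.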

Additional observations from a re-analysis of the deposited data

How the results depend on the processing

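No paired analysis was possible because each group has 1 array; spots were compared by place only as a description. Alternatives by place, by block, against the deposited median and with 2 steps changed together were chosen after the data had been seen. Filters on which miRNAs to compare cannot move the miR-21 difference and were not run for it. The Cy3 signal stood low over its background, and 1 array per group gives no spread between cultures. What caused the following shifts was not tested.

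The 26 alternatives reuse the same spots, so their count is not a measure of support. The miR-21 difference (0.31) was above 0 in 21 of them and below 0 in 5. It was 0.086 with no background correction, 0.44 with cyclic loess, 0.48 with scaling on control spots and 0.17 with no scaling between arrays. With no scaling it was 0.13 after plain subtraction and 0.046 uncorrected. Leaving out 1 spot at a time gave 0.21 to 0.42. Spots 1 and 2 gave 0.57. Spots 3 and 4 gave 0.063, -0.029 with no scaling and -0.11 with no background correction. It was -0.038 in the second channel, -0.23 against its block's probes, 0.60 against its block's Cy3 control spots and -0.23 against the median in the authors' deposited table.

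The rank of 9 with BMP7 was 11 with no background correction, 18 among the 251 mouse miRNAs of the authors' deposited table and 215 in the second channel after the same correction, and 9 to 9 without 1 spot. The rank of 12 with vehicle was 16 and 214 in these, and 12 to 14 without 1 spot. Counts at 2-fold or more (3 higher, 5 lower) became 0 and 0 with no background correction, 15 and 20 with plain subtraction, 7 and 3 with control spots and 15 and 15 with no detection filter, with 3 and 2 among miRNAs detected on both arrays.

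The SMAD-processed median (0.85) was 0.63 with no background correction, 1.28 with plain subtraction and 0.45 with no filter. The growth median (0.49) was 0.23, 1.59 and -0.049 in these, and 0.18 for miRNAs detected on both arrays. The fat cell median (0.16) was 0.73 with plain subtraction and -0.039 with no filter. The BMP and TGF-beta median (0.0015) was 0.18 with no background correction, -0.0015 with 75th percentile scaling, 0.20 with control spots, 0.34 on both arrays and 0.55 with no filter.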
